A study of Mus musculus with 24 samples.

Results

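The genes described here encode subunits of the mitochondrial respiratory chain and of ATP synthase that are carried in the nucleus. They were chosen by symbol: all rows starting with Nduf, Sdh followed by a to d, Uqcr, Cox4i1, Cox5, Cox6, Cox7, Cox8 or Atp5, without "-ps", and with a mean of at least 5 TPM over 24 libraries. TPM is a relative abundance corrected for transcript length, with the same total in every library. Of 99 symbols that match, 89 passed, out of 47729 genes in the table, and all 89 were at 1 TPM or more in all 24 libraries. By symbol, 38 belong to complex I, 4 to complex II, 8 to complex III, 12 to complex IV and 17 to complex V, and 10 are assembly factors (Ndufaf and Sdhaf), which help build a complex and do not stay in it. Ndufa4 is counted under complex I by its symbol, although it is known as a subunit of complex IV. Atp5s and Atp5sl are counted under complex V by symbol alone, and whether they are subunits of it was not checked.

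The tumours arose in MMTV-Wnt1 mice of the line B6SJL-Tg(Wnt1)1Hev/J, in which the mouse mammary tumour virus promoter drives Wnt1 in mammary tissue, and diced pieces were grown in C57BL/6J hosts to about 200 mm3 (day 1). Mice then took oral E7386, which is known to act on the binding of β-catenin to CBP. Each dose, 25 or 50 mg/kg, was given 2 times a day, and day 4 follows 3 days of dosing and day 8 follows 7 days. The 6 groups of 4 libraries are vehicle, 25 mg/kg and 50 mg/kg on each day, and all tumours carry the transgene. The labels do not give ages or say whether each library is a separate animal, so p-values measure the spread between these libraries. Summed keratin markers of mammary tissue were high in every library, from 1484 to 4201 TPM for the 3 basal genes (Krt5, Krt14, Krt17) and from 786 to 1521 TPM for the luminal genes Krt8, Krt18 and Epcam.

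Complexes I and II pass electrons from NADH and succinate to ubiquinone, complex III passes them on to cytochrome c, and complex IV hands them to oxygen. Complexes I, III and IV pump protons, and ATP synthase, complex V, uses the gradient to make ATP. Each complex except complex II also holds subunits encoded in mitochondrial DNA, so its assembly needs both genomes. The transcription factors NRF1 and NRF2 (GABP, a member of the ETS family) are known to bind promoters of many of these nuclear genes.

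Promoters are shown for Uqcrh and Sdhd, because these members fell on day 4 (below) and the letters searched for lie upstream of both annotated starts. Capitals mark GCGC, any 2 bases and GCGC, letters of the NRF1 site, and CCGGAAG, letters of an ETS site, each on either strand. The sequences are from RefSeq on GRCm38.p6, in the direction of the gene and ending next to its start, and bases inside the GENCODE M21 gene were left out.
Uqcrh, chr4:116075072-116075320, minus strand, with 1 ETS match: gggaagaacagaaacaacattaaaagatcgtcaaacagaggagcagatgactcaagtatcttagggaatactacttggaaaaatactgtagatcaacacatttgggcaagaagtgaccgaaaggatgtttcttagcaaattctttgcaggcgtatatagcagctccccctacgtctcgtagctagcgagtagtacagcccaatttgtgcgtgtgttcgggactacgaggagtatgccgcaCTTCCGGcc
Sdhd, chr9:50603850-50604099, minus strand, with an NRF1 match and then an ETS match: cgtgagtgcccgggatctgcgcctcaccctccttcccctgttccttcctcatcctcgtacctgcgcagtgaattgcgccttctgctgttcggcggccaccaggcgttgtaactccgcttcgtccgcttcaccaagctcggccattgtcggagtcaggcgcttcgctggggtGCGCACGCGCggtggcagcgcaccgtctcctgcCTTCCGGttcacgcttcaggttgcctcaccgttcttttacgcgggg
The promoter table held 73 of the 89 members. In the 250 bases before the start, the NRF1 letters stood in 16 of these 73 (21.9%), against 11.3% of 10703 genes tested and 5.64% of all 27025 genes in the table. The ETS letters stood in 14 of 73 (19.2%), against 14.8% of the genes tested and 7.83% of all. Of the 13 members with an entry among those that fell on day 4, 3 held the NRF1 letters and 4 the ETS letters. A match is a description of these letters and not a bound site.

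The members together took 1.33% to 1.58% of the TPM total of a library. Their levels per length differed by complex, with a median of 91.2 TPM in complex I, 88.0 in complex II, 161 in complex III, 294 in complex IV, 234 in complex V and 10.1 among the assembly factors. Atp5b, the catalytic beta subunit of ATP synthase, was the highest at 1304 TPM. Cox4i1 was the highest of complex IV at 550.4 TPM, and Uqcrh, the hinge protein, the highest of complex III at 492 TPM. Within complex I the range ran from Ndufs4 at 15.5 TPM to Ndufa12 at 286 TPM. Sdha, the flavoprotein of succinate dehydrogenase, stood at 117 TPM and its iron-sulfur partner Sdhb at 66.0 TPM. Uqcrfs1, the Rieske iron-sulfur protein, was the lowest of complex III at 60.6 TPM, and the core protein Uqcrc1 stood at 149 TPM. Among the complex I core, Ndufs1 had a mean of 49.2 TPM and Ndufv1, which holds the site of NADH oxidation, 96.2 TPM.

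**Figure D1:**
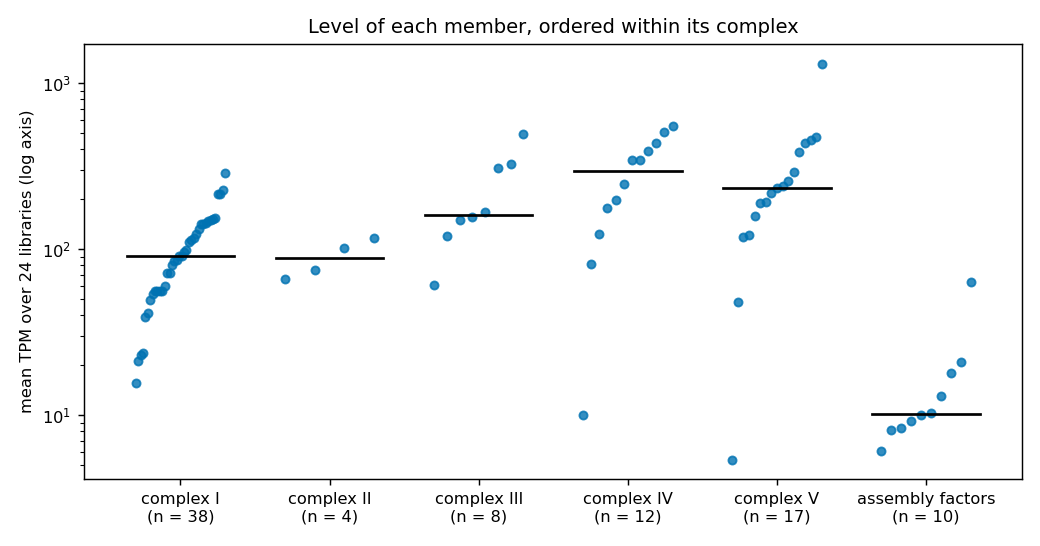
Mean TPM over 24 libraries of each of the 89 members (points, log axis), ordered within its complex, with the median as a bar. Atp5b stands highest at 1304 TPM, and the assembly factors lie lowest, with a median of 10.1 TPM.

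Of isoform pairs, the form known from most tissues was the abundant one. Cox6a1 had a mean of 434 TPM and Cox8a of 507 TPM, while the heart and skeletal muscle forms Cox6a2 (2.43 TPM) and Cox8b (0.78 TPM) fell under the minimum. Cox7a2 had 81.3 TPM and the muscle form Cox7a1 4.85 TPM, just outside the minimum; Atp5s at 5.38 TPM was just inside. The lowest member of complex IV, Cox6b2, a form known from testis, had 10.0 TPM. Cox6a2 was highest at 10.7 TPM in replicate 3 of 25 mg/kg on day 8, the library with the highest skeletal muscle marker sum (844 TPM over 10 genes). The muscle sum ranged from 4.19 to 154 TPM in vehicle and from 3.18 to 574 TPM at 50 mg/kg on day 4, with the groups overlapping.

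Several values depend on how reads were shared with other genes. Ndufb4 (21.1 TPM) has near-identical copies that together held 232 TPM, and the copies of Ndufa12 held 62.0, of Cox7c 99.1, of Atp5g2 43.5 and of Atp5l 41.4 TPM. Levels of these 5 genes are therefore uncertain. Exons of Atp5j overlap Gabpa on the opposite strand, and the same holds for Cox6c and Vps13b, for Cox4i1 and Emc8, and for Ndufa4l2 and Shmt2. Use of the strand in counting is not given in the sources used here, so these members are uncertain too.

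After 3 days at 50 mg/kg, 15 of the 89 members fell against vehicle and 0 rose. Over all 15736 genes tested, 4.31% were called lower and 4.95% higher. The fallen members were in every complex: 5 of 38 in complex I, 1 of 4 in complex II, 3 of 8 in complex III, 1 of 12 in complex IV and 5 of 17 in complex V. None of the 10 assembly factors passed. The median log2 fold change of the members was -0.11, against 0.03 over all genes tested, and 70 of 89 had a negative sign. Groups did not overlap, with 50 mg/kg lower, for 21 members (23.6%), against 7.98% of all genes, and with 50 mg/kg higher for 0 members, against 10.4%. In bulk tissue, fewer cells of a type and less RNA per cell cannot be told apart. The count ranged from 9 when replicate 1 of vehicle, or replicate 2 or 3 of 50 mg/kg, was left out to 26 with library weights. Of the 15, 7 kept their call under all 21 alternatives (Uqcrh, Uqcrb, Uqcrfs1, Ndufb10, Ndufb7, Ndufs7 and Sdhd), and Atp5c1 lost it under 10. Over all genes the calls split into 779 higher and 678 lower, and into 628 and 803 with TMM factors or 656 and 873 with quantile normalization. The summed level of 5 macrophage markers ranged from 79.5 to 163 TPM in vehicle and from 121 to 269 TPM at 50 mg/kg, and 0 of the 5 passed. The sum of 6 adipocyte markers ranged from 17.8 to 91.8 TPM in vehicle and from 15.8 to 247.5 TPM at 50 mg/kg. Of these, 4 were tested and 0 passed. The adipocyte marker Fabp4 had 154 TPM in replicate 1 of 50 mg/kg and 14.8 to 24.6 TPM in the others of that group. The part of these markers in the result was not tested.

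**Figure D2:**
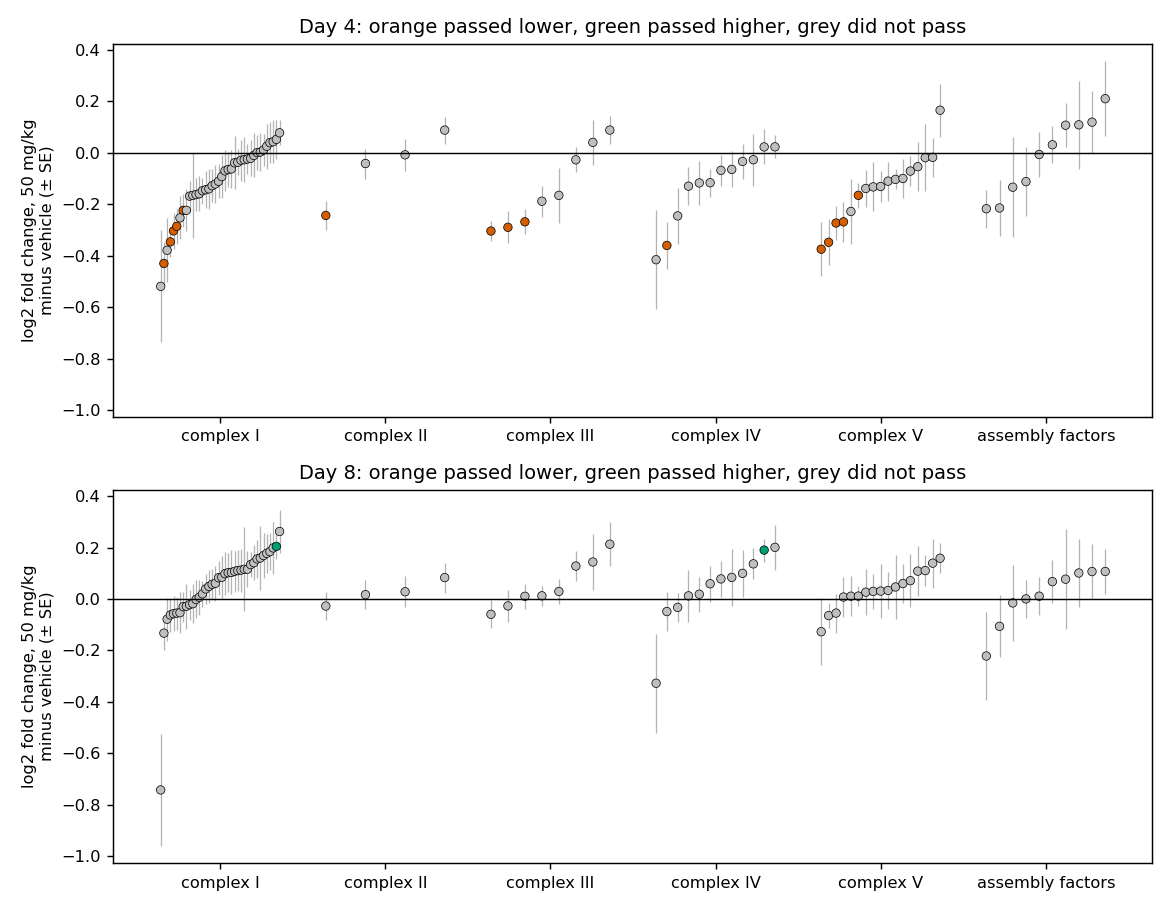
Log2 fold change (± SE) of each member at 50 mg/kg against vehicle by complex, on day 4 (top) and day 8 (bottom), 4 libraries a group. On day 4, 15 members passed as lower (orange) and most points lie below 0; on day 8, 2 passed as higher (green).

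Complex III had the member with the smallest p. Uqcrh was at 497, 501, 499.6 and 509 TPM in vehicle and at 390.0, 418, 409 and 408 TPM at 50 mg/kg on day 4. All 4 treated libraries lay below all vehicle libraries, and the 25 mg/kg libraries, at 479.6 to 536 TPM, overlapped with vehicle. Uqcrh fell by 0.30 on the log2 scale (SE 0.04, adjusted p = 3.39e-05). Uqcrb, which binds ubiquinone in complex III, was at 359.8, 324, 323 and 309.8 TPM in vehicle and at 292, 269, 266 and 264 TPM at 50 mg/kg. It fell by 0.27 (SE 0.05, adjusted p = 0.00181), with no overlap. The Rieske protein Uqcrfs1 was at 67.3, 61.9, 65.0 and 64.6 TPM in vehicle and at 53.3, 51.4, 51.2 and 55.05 TPM at 50 mg/kg. It fell by 0.29 (SE 0.06, adjusted p = 0.00695), again with no overlap. Uqcr11, a small subunit, had means of 339.8 and 298 TPM and no overlap, but did not pass. The core proteins gave -0.03 for Uqcrc1 and 0.09 for Uqcrc2, neither of which passed.

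In complex I, Ndufb10 and Ndufb7, accessory subunits of the membrane arm, had the smallest p-values. Ndufb10 was at 168, 155, 151 and 149 TPM in vehicle and at 131, 118, 122 and 118 TPM at 50 mg/kg, with no overlap. Its log2 fold change was -0.35 (SE 0.06, adjusted p = 0.000863). Ndufb7 was at 131, 125, 138 and 121 TPM in vehicle and at 110.2, 91.9, 82.0 and 98.7 TPM at 50 mg/kg. It had the lowest fold change of the 15, -0.43 (SE 0.08, adjusted p = 0.00311), and its groups did not overlap either. The other Ndufb members did not pass, among them Ndufb9 at 0.08, Ndufb5 at 0.05 and Ndufb11 at 0.01. These examples are positive, but of the 38 complex I members 30 had a negative sign and 8 a positive one (median -0.10). Ndufs7, an iron-sulfur subunit of the electron path, went from 59.2 ± 2.14 to 47.8 ± 1.92 TPM (SD, n = 4; adjusted p = 0.00949), and Ndufs4, an accessory subunit of the matrix arm, from 16.9 ± 1.03 to 13.7 ± 1.28 TPM (adjusted p = 0.0112). Of the 7 core subunits encoded in the nucleus, Ndufs7 was the 1 that passed; Ndufs1 gave -0.11 and Ndufv1 -0.02. Ndufa12, an accessory subunit, went from 309 ± 19.1 to 264 ± 9.98 TPM (adjusted p = 0.0359), a log2 fold change of -0.22. It lost the call under 7 of 21 alternatives: with its near-identical copy added (-0.19, adjusted p = 0.0660), with no filter, and without replicate 1 or 2 of vehicle or replicate 2, 3 or 4 of 50 mg/kg. Over all 21 its fold change lay between -0.26 and -0.19.

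Sdhd, a membrane anchor of complex II, was at 77.5, 77.1, 79.4 and 74.1 TPM in vehicle and at 68.3, 60.2, 64.8 and 66.5 TPM at 50 mg/kg on day 4. It fell by 0.24 (SE 0.06, adjusted p = 0.0112), with no overlap. The other 3 subunits did not pass, with 0.09 for Sdha, -0.01 for Sdhb and -0.04 for Sdhc, the second membrane anchor. In complex IV, Cox6c was at 228, 226, 209 and 211 TPM in vehicle and at 206, 156, 168 and 154 TPM at 50 mg/kg. It fell by 0.36 (SE 0.09, adjusted p = 0.0172), and the groups did not overlap. The other 11 complex IV members did not pass, among them Cox4i1 at -0.12, Cox5a at -0.12, Cox5b at -0.07 and Cox7a2l, a supercomplex factor, at 0.02.

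Among complex V members, Atp5k, subunit e of the membrane part, was at 294, 269, 249 and 249.9 TPM in vehicle and at 219, 201, 208 and 204 TPM at 50 mg/kg. It fell by 0.35 (SE 0.09, adjusted p = 0.0189). Atp5g3, 1 of 3 genes for the c ring, went from 319.7 ± 31.2 to 245 ± 4.83 TPM (adjusted p = 0.0297), while Atp5g1 and Atp5g2 did not pass at -0.23 and -0.07. Neither Atp5k nor Atp5g3 overlapped between the groups. Of the 4 peripheral stalk members, Atp5j and Atp5o passed at -0.27 each (adjusted p = 0.0148 and 0.0363), and their roles are to hold the catalytic part in place. Atp5j was at 209, 219, 201 and 200.2 TPM in vehicle and at 200.4, 153, 164 and 170.1 TPM at 50 mg/kg, where replicate 1 of 50 mg/kg lay within vehicle. Atp5o was at 231, 234, 238 and 219 TPM in vehicle and at 204, 179.99, 178 and 205 TPM at 50 mg/kg, with no overlap. In the catalytic F1 part Atp5c1, the central stalk, passed at -0.17 (adjusted p = 0.0384), and Atp5b gave -0.14 (adjusted p = 0.232). Atp5b had means of 1382 and 1256 TPM, and its groups did not overlap although it did not pass.

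**Figure D3:**
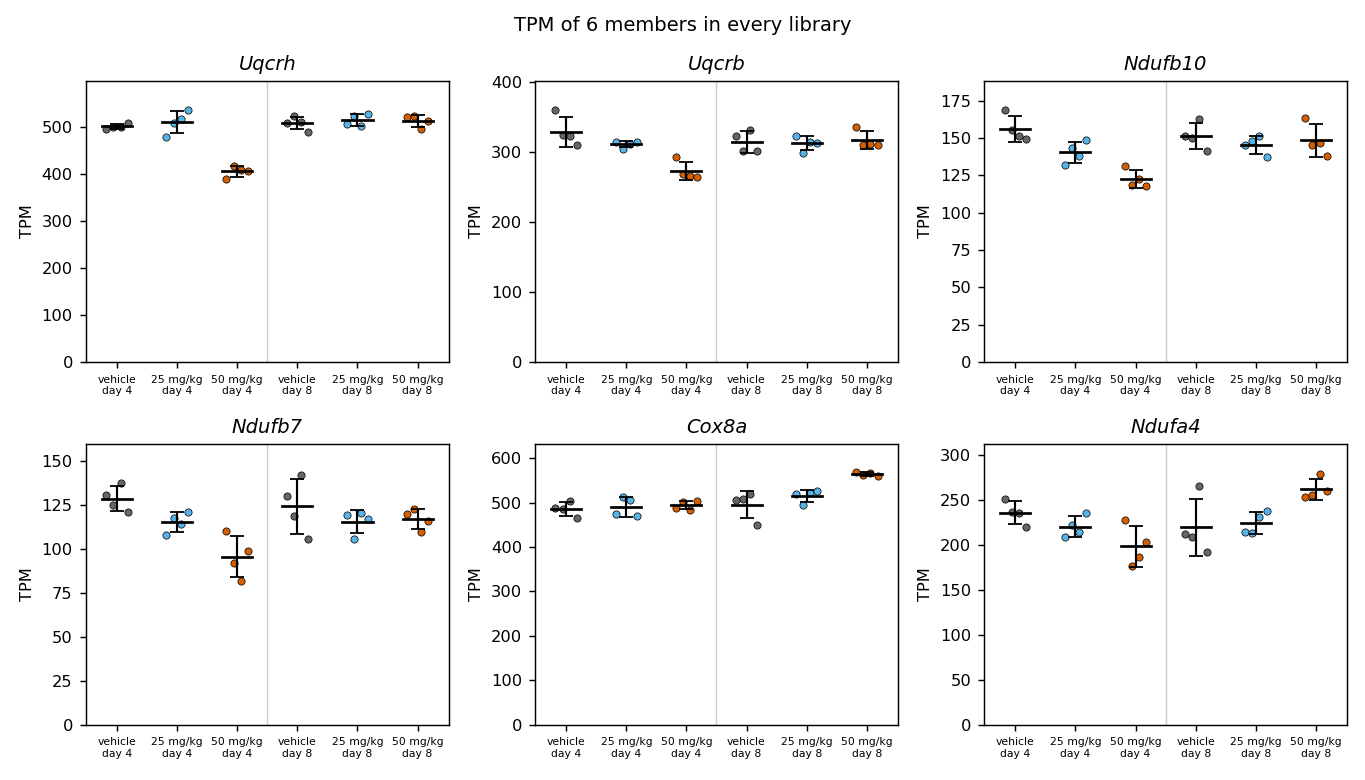
TPM of 6 members in every library of the 6 groups (points), with mean and SD as black bars. On day 4 the 50 mg/kg libraries of Uqcrh, 390.0 to 418 TPM, lie below the vehicle libraries at 497 to 509 TPM, and on day 8 both groups lie between 491 and 523 TPM.

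Averaged over members as log2(TPM + 1), complex III was at 7.59 ± 0.03 in vehicle and 7.45 ± 0.05 at 50 mg/kg on day 4 (SD, n = 4). The lowest vehicle library, 7.56, lay above the highest treated one, 7.49. Complex V was at 7.68 ± 0.01 and 7.54 ± 0.04, and complex IV at 7.72 ± 0.03 and 7.60 ± 0.05, also without overlap. Complex II was at 6.47 ± 0.03 and 6.42 ± 0.04, and its groups overlapped. Complex I was at 6.46 ± 0.04 and 6.33 ± 0.07, where replicate 1 of 50 mg/kg, at 6.43, lay within the vehicle range. The assembly factors were at 3.83 ± 0.04 and 3.82 ± 0.06. Lack of overlap on day 4 was not limited to 50 mg/kg. At 25 mg/kg complex I reached 6.417 at most, with the lowest vehicle library at 6.422. The assembly factors reached 3.73 at 25 mg/kg, with the lowest vehicle library at 3.79. Complex III met vehicle at its edge (7.561 in both), and complexes II, IV and V overlapped. No share over other gene sets was computed for such means.

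**Figure D4:**
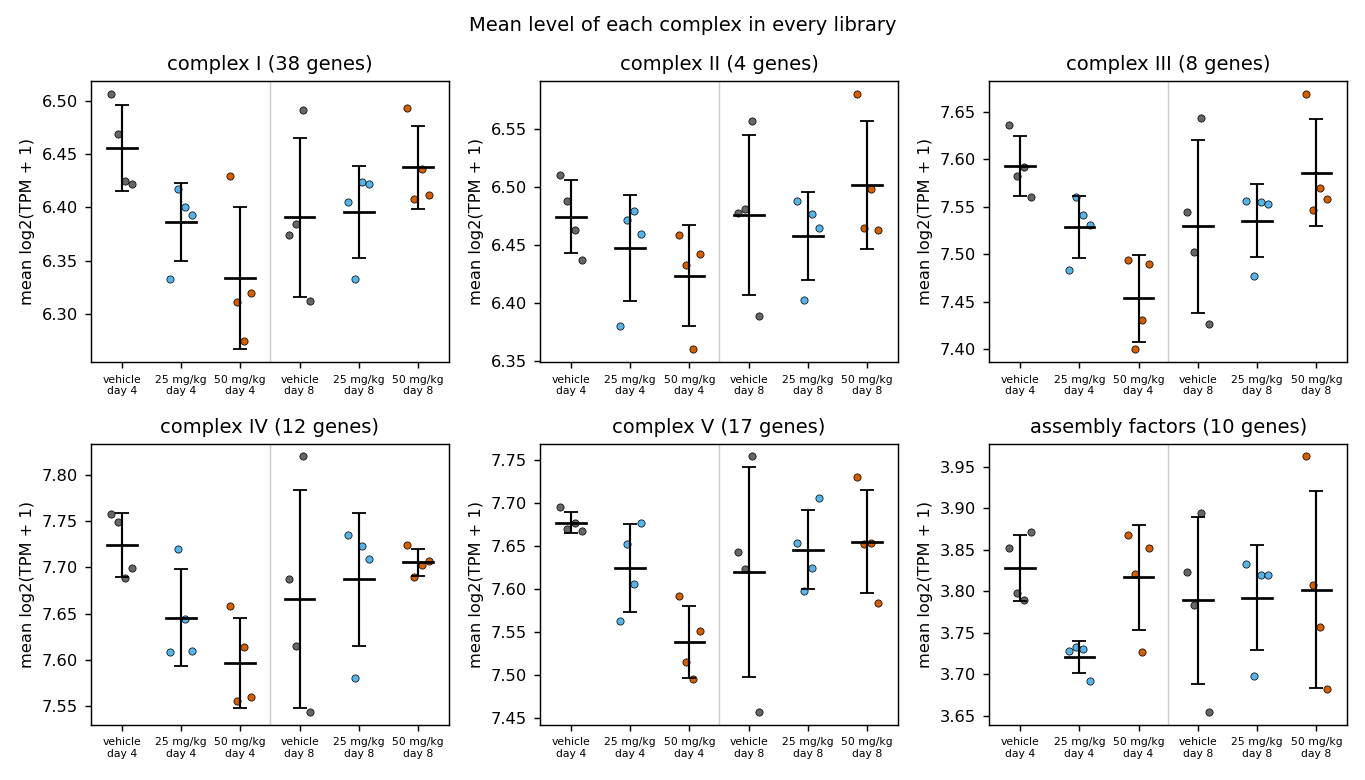
Mean log2(TPM + 1) of the members of each complex in every library (points), with mean and SD as black bars, 4 libraries a group. Complexes III, IV and V show no overlap of 50 mg/kg with vehicle on day 4, and on day 8 the vehicle libraries spread widely. Complex I and the assembly factors show no overlap of 25 mg/kg with vehicle on day 4.

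At 25 mg/kg on day 4, 0 members passed, and 0% of all genes tested were called. At an unadjusted p under 0.05, limma gave 724 of 15736 genes and 4 of the 89 members. Neither share is higher than this threshold alone would give. The median of the members was -0.06, and 73 of 89 had a negative sign, against a median of 0.01 over all genes; without replicate 1 of vehicle the median was -0.04. For 10 members (11.2%) the 25 mg/kg libraries all lay below vehicle, against 2.48% of all genes, and for 0 members above, against 3.06%. Ndufb4 gave -0.23, Ndufs3 -0.16 and Ndufb10 -0.15, the smallest p-values, with an adjusted p of 0.914 for each. The 2 doses share their vehicle libraries. Set against 25 mg/kg, 50 mg/kg gave 2 lower members on day 4, where 1% of all genes were called lower, and 0 higher, where 1.15% were. Without overlap 10 members were lower, against 4.47% of all genes, and 0 higher, against 5.42%. The called members were Uqcrh (-0.33, SE 0.04, adjusted p = 2.1e-05) and Uqcrb (-0.19, SE 0.05, adjusted p = 0.0467). Uqcrb lost its call under 13 of 21 alternatives, and Uqcrh held it under all 21.

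After 7 days at 50 mg/kg, 0 members fell and 2 rose, where 2.02% of all genes were called lower and 0.763% higher. Cox8a, a small complex IV subunit, was at 505, 508, 518 and 449.9 TPM in vehicle and at 569, 562, 566 and 561 TPM at 50 mg/kg. It rose by 0.19 (SE 0.04, adjusted p = 0.0236), and Ndufb9, an accessory subunit of complex I, rose by 0.20 (SE 0.05, adjusted p = 0.0262). Ndufb9 was at 201, 198, 210.2 and 189.9 TPM in vehicle and at 234, 226, 233 and 229 TPM at 50 mg/kg. Neither gene overlapped between the groups, yet neither passed with quantile normalization or in a fit of the compared groups alone. Cox8a also did not pass with TMM factors or without replicate 3 of 50 mg/kg. Ndufb9 also did not pass without replicate 1 or 2 of vehicle or replicate 1 or 3 of 50 mg/kg. Over all genes, the fit of the compared groups alone called 3 of 14711 higher and 9 lower, against 120 and 318 in the main fit. The median of the members was 0.05, against -0.02 over all genes, and 65 of 89 had a positive sign. The median rested on single libraries: it was 0.01 without replicate 4 of vehicle (40 of 89 negative), 0.02 without replicate 1 of 50 mg/kg (35 negative) and 0.08 without replicate 3 of vehicle. With quantile normalization it was 0.03 and with TMM factors 0.08. Groups did not overlap, with 50 mg/kg higher, for 7 members (7.87%), against 1.58% of all genes, and with 50 mg/kg lower for 0 members, against 4.92%. Besides the called genes the 7 were Ndufa1, Ndufa3, Ndufa13, Atp5g2 and Atp5d, with fold changes from 0.11 to 0.18. By complex the median was 0.08 in complex I, 0.02 in complexes II and III, 0.07 in complex IV, 0.03 in complex V and 0.04 among the assembly factors. Keratins Krt5, Krt14 and Krt17 rose in the same comparison (3 of 3 passed), with sums of 2528 to 4201 TPM at 50 mg/kg and 1532 to 2151 TPM in vehicle; their part in these values was not tested.

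The vehicle libraries of day 8 spread more than those of day 4. The mean over all members was 6.61 ± 0.09 on day 8 and 6.67 ± 0.03 on day 4, with replicate 3 of day 8 at 6.73 and replicate 4 at 6.50. Between the 2 vehicle groups 0 members passed and 0% of all genes were called (1749 at an unadjusted p under 0.05 with limma, 9 of them members). The median of the members, day 8 minus day 4, was -0.06 with 68 of 89 negative, against 0.01 over all genes; it was -0.02 without replicate 4 of day 8, -0.10 without replicate 3 of day 8 and -0.04 without replicate 1 of day 4. Both vehicle groups enter the difference of the 50 mg/kg effect between days. Without overlap 3 members were lower on day 8, against 2.52% of all genes, and 0 higher, against 1.8%. At 25 mg/kg on day 8, 0 members passed and 0% of all genes were called. At an unadjusted p under 0.05, limma gave 468 of 15736 genes and 0 members, no more than this threshold alone would give. The median of the members was 0.01. This median was -0.03 without replicate 4 of vehicle (62 of 89 negative), 0.05 without replicate 3 of vehicle, 0.03 without replicate 2 of 25 mg/kg and near 0 without replicate 1 or 4 of 25 mg/kg, so it has no stable sign. No member was without overlap at this dose, against 0.845% of all genes lower and 0.782% higher. Ndufaf1, Atp5g2 and Ndufb8 had the smallest p-values there, at -0.14, 0.10 and 0.12. Between the doses on day 8, 0 members passed, where 0.852% of all genes were called lower and 0.229% higher; without overlap 1 member was lower, against 6.04%, and 4 higher, against 3.82%.

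The effect of 50 mg/kg on day 8 minus that on day 4 was tested directly. It was higher for 4 members and lower for 0, where 0.35% of all genes were called higher and 1.09% lower. Uqcrh, -0.30 on day 4, was 0.01 on day 8, where vehicle had 509.7, 523, 511 and 491 TPM and 50 mg/kg 521, 523, 496 and 512 TPM. The difference was 0.32 (SE 0.05, adjusted p = 0.00416). Uqcrb was likewise at 0.01 on day 8, a difference of 0.28 (SE 0.07, adjusted p = 0.0486). Ndufa4 was at 252, 236, 236 and 220.1 TPM in vehicle and at 228, 176, 187 and 204 TPM at 50 mg/kg on day 4. On day 8 it was at 213, 209, 265 and 192 TPM in vehicle and at 254, 256, 279 and 259.7 TPM at 50 mg/kg. Its fold changes were -0.25 and 0.26, neither of which passed, and they differed by 0.52 (SE 0.12, adjusted p = 0.0317). Ndufa1, a small membrane-arm subunit of complex I, went from -0.15 to 0.13, a difference of 0.28 (SE 0.07, adjusted p = 0.0483). Over 29 alternatives Uqcrh kept its call in 29, Ndufa4 in 15, Uqcrb in 11 and Ndufa1 in 9. Without replicate 3 of day 8 vehicle, 15 members were higher, and in 10 of the other 15 fits that left out 1 library the count was 1.

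Some subunits have forms known to be induced by low oxygen. Cox4i2, the alternative to Cox4i1, lies outside the symbols of the rule. It was at 5.52, 9.55, 10.1 and 12.8 TPM in vehicle and at 2.69, 2.21, 3.70 and 4.87 TPM at 50 mg/kg on day 4. On day 8 it was at 13.4, 9.78, 10.6 and 12.15 TPM in vehicle and at 4.05, 2.55, 3.36 and 2.47 TPM at 50 mg/kg. Cox4i2 fell by 1.25 on day 4 (SE 0.26, adjusted p = 0.00546) and by 1.61 on day 8 (SE 0.26, adjusted p = 0.00168), with no overlap on either day. As a share of Cox4i1, it went from 1.72% ± 0.57 to 0.66% ± 0.21 on day 4 and from 2.04% ± 0.38 to 0.56% ± 0.12 on day 8. Ndufa4l2, the alternative to Ndufa4 and a member, was at 18.02, 29.1, 28.5 and 29.8 TPM in vehicle and at 16.1, 19.3, 17.8 and 17.8 TPM at 50 mg/kg on day 4. On day 8 it was at 31.6, 24.2, 17.99 and 37.7 TPM in vehicle and at 12.1, 12.3, 17.6 and 22.8 TPM at 50 mg/kg. Its groups overlapped on both days and it did not pass, at -0.52 (adjusted p = 0.136) and -0.74 (adjusted p = 0.0660). On day 8 it passed with a replicate block (adjusted p = 0.0481), with library weights (adjusted p = 0.0274), without replicate 3 of vehicle (-0.93) and without replicate 4 of 50 mg/kg (-0.91), and on day 4 with library weights (adjusted p = 0.0492). Over the alternatives its adjusted p ran up to 0.268 on day 4 and 0.340 on day 8. It varied more than any other member, with a highest library 3.12 times the lowest, against a median of 1.38 times over the members.

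**Figure D5:**
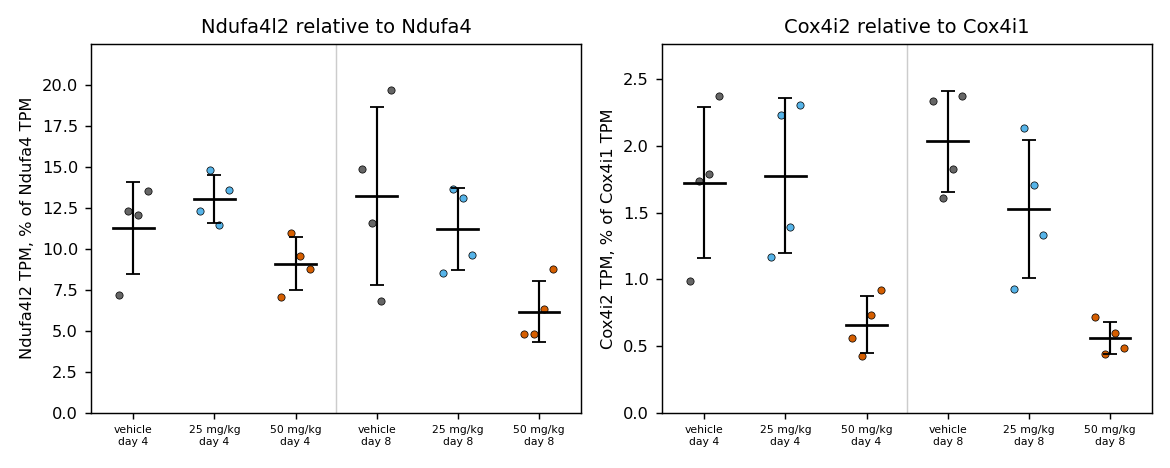
TPM of Ndufa4l2 as a percentage of Ndufa4 (left) and of Cox4i2 as a percentage of Cox4i1 (right) in every library, with mean and SD as black bars. The Cox4i2 share at 50 mg/kg, 0.66% on day 4 and 0.56% on day 8, lies below vehicle at 1.72% and 2.04%.

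Other genes of the pathway were taken from lists chosen with earlier results of these data known, so their counts are descriptions. Over all genes tested at 50 mg/kg, 4.31% fell and 4.95% rose on day 4. On day 8, 2.02% fell and 0.763% rose. A list of 7 genes of subunit isoforms and mitochondrial remodelling linked to low oxygen also holds the member Ndufa4l2 and Cox4i2. Of these 7, 4 fell and 0 rose at 50 mg/kg on each day, namely Cox4i2, Higd1a, Bnip3 and Bnip3l. Higd1a, which binds complex IV, went from 19.1 ± 2.96 to 9.68 ± 1.16 TPM on day 4 (adjusted p = 0.000257), and Bnip3, a receptor for removal of mitochondria, from 40.7 ± 5.55 to 16.7 ± 4.77 TPM (adjusted p = 0.00266). Of 22 complex IV assembly genes, 3 rose on day 4 (Sco2, Cox16 and Coa5, by 0.36, 0.40 and 0.19) and 1 fell on day 8 (Cox11, by 0.35). With TMM factors or quantile normalization Sco2, Cox16, Coa5 and Cox11 did not pass. Of 9 accessories of ATP synthase and supercomplexes, 2 fell on day 4, Usmg5, a small ATP synthase protein (-0.32), and Phb, a prohibitin of the inner membrane (-0.33). Usmg5 lost its call under 4 of 21 alternatives and Phb under 7. Of 13 genes of the tricarboxylic acid cycle, Ogdh, of the 2-oxoglutarate dehydrogenase complex, rose on both days (0.19 and 0.21) and Cs, citrate synthase, on day 8 (0.19). Cs lost its call under 10 of 21 alternatives. Ogdh lost it under 3 on day 4 and 4 on day 8, on each day also in the fit of the compared groups alone. Of 8 complex I and 6 complex III assembly genes, 16 genes of electron carriers and their synthesis and 13 regulators of mitochondrial biogenesis, 0 passed on either day. Cytochrome c1 (Cyc1) and cytochrome c (Cycs) are not members, because their symbols lie outside the rule, and they were placed in the carriers' list. On day 4 Cyc1 gave -0.13 and Cycs -0.27. Of the 13 subunits encoded in mitochondrial DNA, 0 passed on day 4 and mt-Co1 fell on day 8 (-0.33, adjusted p = 0.0130). Their median at 50 mg/kg was -0.17 on day 4, against -0.11 for the members, and 0.03 on day 8. At 25 mg/kg on day 4 it was -0.10, against -0.06 for the members. A negative median on day 4 was thus not particular to the nuclear-encoded members.

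The members lie on 19 chromosomes. The 15 that fell on day 4 had a median of 1718 annotated exon bases and 197 TPM, the other 74 members 1795 bases and 112 TPM, and all genes tested 3904 bases and 16.2 TPM. Uqcrh lies at chr4:116066965-116075071, Uqcrb at chr13:66900617-66905378, Ndufb10 at chr17:24722060-24724478 and Ndufb7 at chr8:83566671-83571626, as GENCODE M21 genes on GRCm38. The slope of a library's log2 deviation from the gene mean on log2 exon length was not tested between groups. Its ranges in vehicle and at 50 mg/kg overlapped on both days. On day 4 it ran from -0.020 to 0.0065 in vehicle and from 0.0033 to 0.044 at 50 mg/kg. On day 8 it ran from -0.016 to 0.017 in vehicle and from -0.034 to -0.0074 at 50 mg/kg. With each library's trend by exon length removed, the median of the members on day 4 was -0.10, and with the skeletal muscle level as a covariate it was -0.12. The part of length or muscle in the result was not tested.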

How the data were processed

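RNA was purified on RNeasy columns and strand-specific SureSelect libraries were made from 1 µg of total RNA, per the labels' protocols. The tools named per the submitters' processing notes are RSEM 1.2.31, STAR 2.5.0c, Trimmomatic 0.36 and bcl2fastq, with mm10 (GRCm38) as build; their settings and the annotation release are not stated there. The authors deposited TPM values for 47729 genes. TPM keeps no read depth, so depth is unknown and no counting interval is given; a rise of abundant genes lowers all other values.

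Values were taken as log2(TPM + 1), a scale that understates changes of low genes. The 15736 genes that reached 1 TPM in 4 or more libraries were fitted with limma 3.58.1 in R 4.3.3, all 24 libraries and 6 groups together, with an intensity trend and 18 residual degrees of freedom. P-values are two-sided, adjusted by Benjamini-Hochberg over all genes tested, with a threshold of 0.05. Near-identical copies (95% identity over 100 bases or more) were found with BLAST 2.17.0. The members and lists were chosen with earlier results of these data known, and subsets of a complex (core, c ring, stalk) were drawn after the values were seen.

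Named members were those with the largest changes among the passed, up to 6 in each direction for a dose against vehicle and up to 4 otherwise. The 3 smallest p-values were taken where fewer than 3 passed. A fixed set of subunits and isoforms, the highest and lowest of each complex, and up to 3 passed genes of each other list were added. The other members that passed on day 4, and the genes Uqcrc2, Uqcr11, Sdhc, Atp5g1, Atp5g2, Atp5d, Ndufa3, Ndufa13, Ndufb5, Ndufb11 and Bnip3l, were named with their values known.

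The alternatives tried were TMM factors (the trimmed mean of log ratios, computed on TPM), quantile normalization, rescaling without mitochondrial genes, no filter or one at 5 TPM, pseudocounts of 0.1 and 5, the compared groups alone, library weights, a replicate block and leaving out each library. A muscle covariate, summed copies and removal of the length trend were added after seeing the data. On simulated data for 50 mg/kg against vehicle on day 4 over 15736 genes, 46% of 50 genes changed 1.3-fold, 74% at 1.5-fold and 88% at 2-fold were called, with 9 unchanged genes called. The noise was normal, and changed genes were drawn from all genes above a minimum level. They were far fewer than the genes called in the real data, and no rate was computed for the members.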

Additional observations from a re-analysis of the deposited data

Results flagged for a closer look

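Within each group of 4, a library was singled out where its gap to the nearest of the others, divided by the range, passed Dixon's 95% critical value. Of 294 groups of values examined, 21 held such a library, and chance gives about 1 in 20.

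On day 4, replicate 1 of 50 mg/kg stood above the others for Ndufa12 (279 TPM, others 258 to 261), Ndufb9 (232 TPM, others 219.9 to 220.5) and Uqcrb (292 TPM, others 264 to 269). Replicate 1 of 25 mg/kg stood below for Ndufb9 (191 TPM, others 216 to 220.1) and above for Ndufs1 (50.6 TPM, others 45.5 to 45.8). In vehicle, replicate 1 was low for Ndufa4l2 (18.02 TPM, others 28.5 to 29.8), and replicate 4 was high for the muscle form Cox6a2 (2.98 TPM, others 0.11 to 0.33). The assembly factors had a mean log2(TPM + 1) of 3.69 in replicate 4 of 25 mg/kg, with the others at 3.73.

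On day 8, replicate 3 of vehicle was high for Ndufv1 (101 TPM, others 91.2 to 91.5), Cox6b2 (13.1 TPM, others 9.34 to 9.97) and the muscle form Cox8b (2.63 TPM, others listed at 0). Replicate 4 of vehicle was low for Sdha (106 TPM, others 122 to 124). Replicate 1 of 50 mg/kg was high for Uqcrb (336 TPM, others 309 to 311) and for cytochrome c, Cycs (112 TPM, others 74.8 to 81.1). At 25 mg/kg, replicate 4 was high for Cox7a2 (90.1 TPM, others 76.8 to 78.5), and replicate 3 for Cox6a2 (10.7 TPM, others 0.24 to 1.45) and Cox8b (3.64 TPM, others 0 to 0.24). Replicate 2 of 25 mg/kg was low in mean log2(TPM + 1) of complex III (7.48, others 7.55 to 7.56), complex IV (7.58, others 7.71 to 7.74), the assembly factors (3.70, others 3.82 to 3.83) and all members (6.55, others 6.64 to 6.65).

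The 50 mg/kg effect differed between the days, day 8 minus day 4, for Uqcrh (0.32), Ndufa4 (0.52), Ndufa1 (0.28) and Uqcrb (0.28), with the limma adjusted p-values given above.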

How the results depend on the processing

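On day 4 the count of members lower at 50 mg/kg (15) was 26 with library weights and 9 to 16 when 1 library was left out; 0 members were higher in any alternative. On day 8 the count higher (2) was 1 with TMM factors, 0 with quantile normalization or the compared groups alone, 7 with library weights and 0 to 4 leaving out 1 library. The count lower on day 8 (0) was 1 with library weights and 0 to 1 leaving out 1 library. Between doses on day 4 the count lower (2) was 1 with TMM factors, no filter, the muscle covariate, copies summed or the length trend removed, 14 with library weights and 1 to 3 leaving out 1 library. Between doses on day 8 the count higher (0) was 1 after rescaling without mitochondrial genes, with a filter at 5 TPM or with the length trend removed, 4 with library weights and 0 to 1 leaving out 1 library; the count lower (0) was 1 with library weights. For the day difference the count higher (4) was 1 with no filter, the compared groups alone or the length trend removed, 2 with a pseudocount of 0.1, 11 with library weights and 1 to 15 leaving out 1 library. The cause of these shifts was not tested. On day 8 the log2 fold change of Uqcrb turned to -0.0103 with quantile normalization and -0.0178 with library weights (-0.0176 to 0.0373 leaving out 1 library), and that of Uqcrh to -0.0433 and -0.0212 (-0.0046 to 0.0292 leaving out 1 library).

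Whether the replicate numbers pair the libraries is not settled by the correlations of same-number libraries, which ran from -0.33 to 0.42. On day 8 those of replicate 2 were 0.33, 0.42 and 0.34 between the groups, and those of replicate 1 were -0.10, 0.09 and -0.12. With a replicate block 1 member, Ndufa4l2, was lower on day 8, and the other counts stayed within 1.5 times. With no depth in TPM, the precision of low genes cannot be given.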
